A study of Mus musculus with 12 samples.

Results

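miR-142-3p and miR-142-5p are the mature miRNAs cut from the 2 arms of the miR-142 hairpin, and their levels were followed from hemopoietic stem/progenitor cells to granulocytes of the mouse. They are the 2 members whose names begin with miR-142 among 269 named assays, in a table of 593 assays of TaqMan rodent miRNA array cards. All 12 samples came from bone marrow of C57BL/6 mice. RNA was taken from the nucleus, the cytoplasm and the whole cell of LSK cells (sorted as Lin- Sca1+ cKit+), promyelocytes, myelocytes and granulocytes, with 1 sample of each stage and fraction, from 100 ng of RNA per sample by the labels. The study also speaks of cell equivalent volumes for the fractions, and levels set between fractions depend on which of these holds. The stages were sorted on surface antigens, so each is a gated population of marrow cells, and no agent or altered allele was given. The value is the CT, the PCR cycle at which product crosses a threshold: the less template, the later that cycle, and at full efficiency each cycle is worth 2-fold.

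miR-142 is a miRNA of blood cells, transcribed in nearly every hemopoietic lineage and scarcely elsewhere. Its primary transcript is cut to a hairpin in the nucleus, the hairpin is exported and diced in the cytoplasm, and either arm can then be loaded into an Argonaute protein, where the seed near its 5′ end pairs with target mRNAs. Mice without miR-142 have defects in several blood lineages, and the 3p arm in particular has been tied to granulocytic differentiation.

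The sequences are shown because the 2 assays read different products of 1 hairpin, with different seeds. RefSeq (GRCm38.p6) places the hairpin of Mir142 at chr11:87756864-87756927 on the plus strand, between Supt4a, 13240 bases before it, and Tspoap1, 1266 bases after it. Mpo, the gene of the promyelocyte granule enzyme myeloperoxidase, lies 36856 bases after the hairpin. RefSeq names the mouse arms miR-142a. In the hairpin, the capitals mark the arms:
Mir142 hairpin: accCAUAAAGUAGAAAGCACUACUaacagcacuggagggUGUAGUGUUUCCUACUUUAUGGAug
In the mature miRNAs, the capitals mark the seed, bases 2 to 8 from the 5′ end:
mmu-miR-142a-5p: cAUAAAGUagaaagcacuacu
mmu-miR-142a-3p: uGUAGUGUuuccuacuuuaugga
The 5p arm lies at chr11:87756867-87756887 and the 3p arm at chr11:87756903-87756925. In the structure computed with RNAfold, 19 of the 21 bases of the 5p arm pair with the 3p arm, and 15 bases lie between the arms. Among 1738 mature mouse miRNAs of RefSeq, 0 others shared either seed.

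Another miRNA, miR-142b, is annotated on the opposite strand of the same locus, at chr11:87756906-87756925. Its sequence, again with the seed in capitals, is the exact reverse complement of bases 4 to 23 of miR-142a-3p:
mmu-miR-142b: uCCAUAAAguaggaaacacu
No named assay carries the name miR-142b, so its level is not given here.

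miR-142-3p was among the assays with the lowest CT at every stage. In whole cell RNA its CT was 25.3 for LSK, 22.9 for promyelocytes, 21.1 for myelocytes and 20.6 for granulocytes. It was thus lowest in LSK and stood highest in granulocytes, and in rank it moved from the 27th lowest CT of all assays in LSK to the 15th, the 8th and the 7th in the later stages. miR-142-5p had a whole cell CT of 31.2 for LSK, 30.3 for promyelocytes, 28.1 for myelocytes and 28.05 for granulocytes. It followed the same order of stages as the 3p arm, with its last stages only 0.08 cycles apart. Its CT was above 30, the limit used here for counting an assay, in LSK and promyelocytes. Each stage and fraction rests on 1 sample, so the differences given here have no replicates to be set against, and none was tested.

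In cytoplasmic RNA the order of stages by raw CT was not that of whole cell RNA. The cytoplasmic CT of miR-142-3p was 23.6 for LSK, 24.1 for promyelocytes, 21.97 for myelocytes and 22.2 for granulocytes. That of miR-142-5p was 30.1 for LSK, 31.0 for promyelocytes, 28.6 for myelocytes and 28.4 for granulocytes. Before any scaling, promyelocytes had the lowest level of both arms in this fraction, and myelocytes and granulocytes lay within 0.26 cycles of each other for either arm. Under each of the 3 scalings tried, promyelocytes lay above LSK for both arms. In nuclear RNA miR-142-3p had a CT of 27.2 for LSK, 26.7 for promyelocytes, 25.3 for myelocytes and 23.4 for granulocytes. Nuclear miR-142-5p had a CT of 34.9 for LSK, 33.0 for myelocytes and 31.5 for granulocytes, and its promyelocyte well was undetermined, which the table lists at 40. Granulocytes stood highest for both arms in the nucleus.

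**Figure D1:**
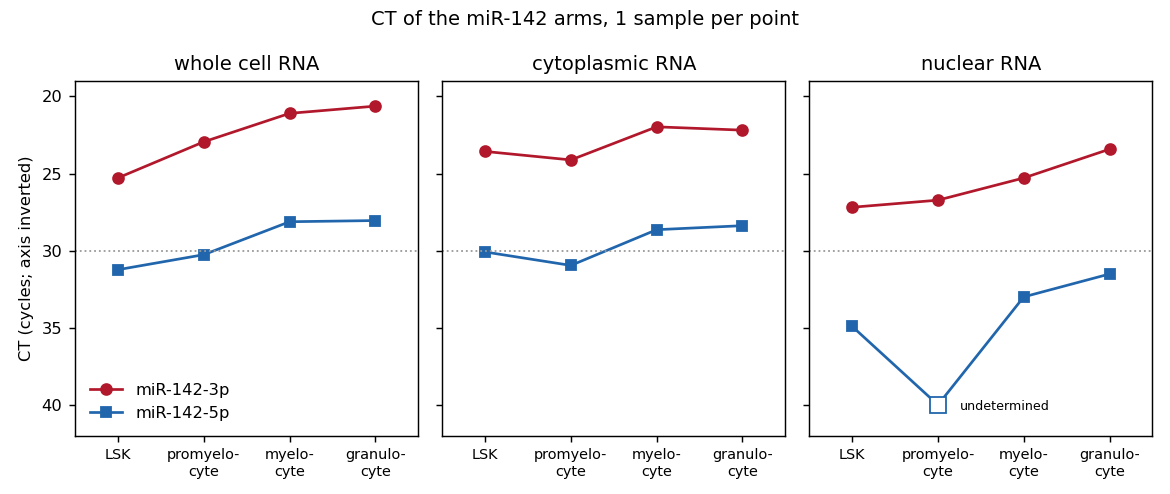
CT of miR-142-3p (circles) and miR-142-5p (squares) by stage in whole cell, cytoplasmic and nuclear RNA, 1 sample per point, on an inverted axis in cycles; the dotted line is a CT of 30 and the open square is the undetermined well listed at 40. The 3p arm falls from a CT of 25.3 to 20.6 in whole cell RNA. Before scaling, both arms are at their lowest cytoplasmic level in promyelocytes, a stage where only 3 of 71 assays were higher than in LSK.

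Stem cell markers were higher in LSK and the granulocytic marker in granulocytes, and no marker was at hand for promyelocytes or myelocytes. Whole cell miR-223, the granulocytic miRNA, went from a CT of 24.0 to 16.4 between LSK and granulocytes, and miR-126-3p, which marks stem and progenitor cells, went from 24.3 to 27.0. miR-125b-5p, another stem cell marker, went from 28.9 to 32.05, and the lymphoid miR-150 was at 25.1 for LSK, 28.8 for promyelocytes, 25.6 for myelocytes and 25.8 for granulocytes. The part of lymphoid cells in the stages was not tested. No assay was named for the erythroid markers miR-451 and miR-144 or for the liver marker miR-122. Between 259 and 288 assays were read below a CT of 40 in whole cell samples, 263 to 294 in cytoplasmic and 199 to 229 in nuclear ones.

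The first question was how the arms changed between stages in whole cell RNA. The CT differences were corrected by the change in mean CT of the last 3 assays of the table, and a log2 change of 1 or more was counted as 2-fold. From LSK to promyelocytes miR-142-3p was higher by 2.09 on the log2 scale, or 4.26-fold, and only 8 of 104 named assays below a CT of 30 in either stage had a larger increase. miR-142-5p was higher by 0.73, or 1.65-fold, with both of its CT values above 30. So 1 of the 2 arms passed 2-fold in this step, where 33.7% of the named assays did, and the median of all was 0.43.

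From promyelocytes to myelocytes the arms stood closer to each other. miR-142-3p was higher by 1.86, or 3.62-fold, and miR-142-5p by 2.15, or 4.43-fold. Both arms passed 2-fold, against 42% of the 112 assays, and 26 and 18 assays respectively had a larger increase. With the median scaling the values were 0.68 and 0.97, so neither arm passed 2-fold, and the share fell to 14.3%. The median of all assays was 0.75, and -0.43 with the median scaling, so the arms lay in the upper part of a broad distribution and not apart from it.

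Between myelocytes and granulocytes the arms barely moved. miR-142-3p was higher by 0.03 and miR-142-5p lower, at -0.36 on the log2 scale. Neither passed 2-fold, against 10.8% of the 120 assays, and the median was 0.07. The sign for miR-142-5p depends on the scaling, since it was 0.08 without any scaling.

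Over the whole span from LSK to granulocytes, miR-142-3p was higher by 3.98 on the log2 scale, or 15.7-fold, the 12th largest increase of 124 assays. miR-142-5p was higher by 2.51, or 5.70-fold, in the 37th place. The fold depended on the scaling, from 8.82 with the mean of the assays to 25.2 with none for miR-142-3p and from 3.19 to 9.10 for miR-142-5p, while the places stayed as they were, since a scaling shifts all assays alike. Both arms passed 2-fold, which 55.6% of the assays also did, so that the count of 2 does not set them apart, while the size of the 3p increase lay well above the median of 1.31.

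In cytoplasmic RNA, which the study left unscaled, the first step ran the other way. From LSK to promyelocytes the log2 change was -0.55 for miR-142-3p and -0.87 for miR-142-5p. Neither arm passed 2-fold upward in this step, where 8.11% of 111 assays did. The median of all was -1.26, and 30 assays lay above miR-142-3p. That median was 0.59 with the last 3 assays, -0.09 with the mean and 0.35 with the median scaling. Against the unscaled median both arms were higher, and under each of the 3 scalings tried the direction turned upward for both. The last 3 assays read more signal in the nucleus than in the cytoplasm. Their mean cytoplasmic CT was 24.3 for LSK, 26.2 for promyelocytes, 24.5 for myelocytes and 22.9 for granulocytes, which limits them as a reference for this fraction.

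Of the later cytoplasmic steps, that to myelocytes ran the same way as in whole cell RNA before any scaling of the fraction, and the last step was small. From promyelocytes to myelocytes miR-142-3p was higher by 2.15 and miR-142-5p by 2.32. Both passed 2-fold, as did 54.5% of 110 assays, with a median of 1.18. Neither did so with the last 3 assays, at 0.47 and 0.64, or with the median scaling, at 0.56 and 0.73. In the last step the changes were -0.22 and 0.26, neither past 2-fold, against 11% of 109 assays. With the last 3 assays both lay past 2-fold lower, at -1.81 and -1.33, near the median of all assays, which was then -1.51. From LSK to granulocytes miR-142-3p was higher by 1.38, or 2.60-fold, and miR-142-5p by 1.70, or 3.26-fold. Both arms passed 2-fold there, against 33.9% of 124 assays whose median was -0.23. With the last 3 assays used to scale the fraction, these 2 values were -0.03 and 0.29, so the sign for miR-142-3p turned.

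**Figure D2:**
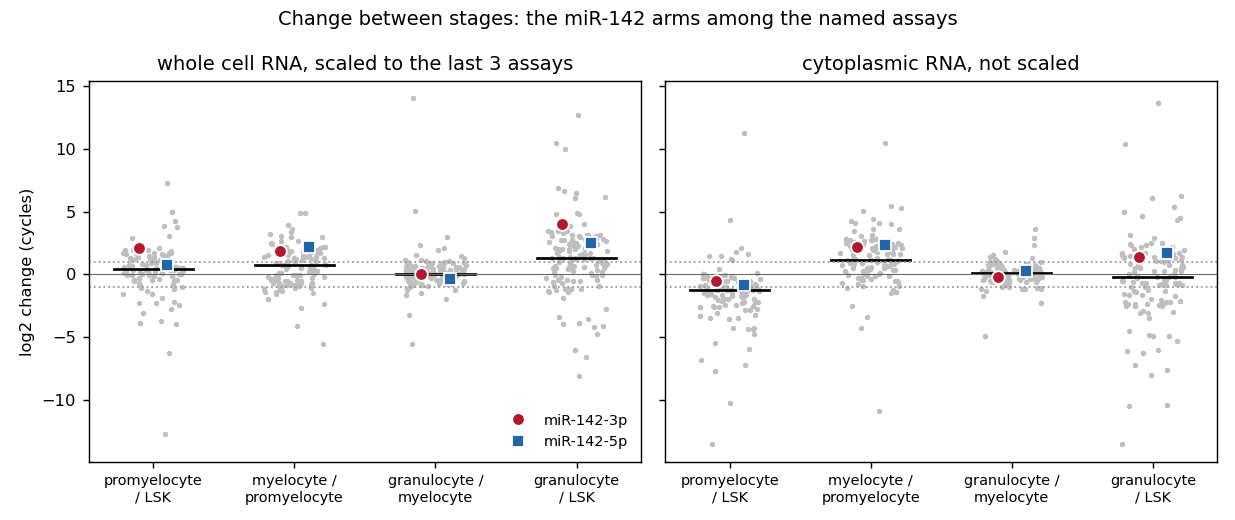
Log2 change in each step between stages and from LSK to granulocytes, in cycles, for named assays whose CT was under 30 in either stage (grey points, undetermined wells at 40), with their median (black bar), miR-142-3p (circles) and miR-142-5p (squares); dotted lines mark 2-fold. In whole cell RNA from LSK to granulocytes the arms lie at 3.98 and 2.51, above the median of 1.31. In the unscaled cytoplasmic step to promyelocytes both lie below 0 but above the median of -1.26.

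In the comparisons with LSK, the gap between whole cell and cytoplasmic changes was shared by nearly all miRNAs. Among the 71 assays under a CT of 30 in LSK and promyelocytes of both fractions, the unscaled whole cell change exceeded the cytoplasmic change for 70, by a median of 1.84 cycles with an SD of 0.69 across assays. For miR-142-5p the excess was 1.85, at the median. For miR-142-3p it was 2.89, further above the median than the SD. From LSK to granulocytes the excess was above 0 for 71 of 71 assays, with a median of 1.86 and an SD of 0.57 across assays, and it was 3.27 for miR-142-3p and 1.48 for miR-142-5p. It was not of 1 sign in the later steps: from promyelocytes to myelocytes the excess was above 0 for 11 of 81 assays, with a median of -0.55, and in the last step for 71 of 96, with a median of 0.27. The amount of RNA per cell, the yield of the fractionation and the level of the miRNAs cannot be told apart in these values.

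Nuclear miR-142-3p was higher at each later stage before scaling. Its log2 change was 0.46 from LSK to promyelocytes, 1.44 to myelocytes and 1.87 to granulocytes, and 3.77 over the whole span, or 13.6-fold. The first of these turned to -0.07 with the median scaling, and the last step fell to 0.58 with it. The step to myelocytes was 2.85 with the last 3 assays, 1.52 with the mean and 2.08 with the median scaling. The fold over the whole span was 5.67 with the mean, 6.00 with the median and 30.2 with the last 3 assays. Over that span 9 of 63 assays with a nuclear CT under 30 in either stage had a larger increase, and the median was 1.59. That median was 2.74 with the last 3 assays, 0.33 with the mean and 0.41 with the median scaling. miR-142-5p was higher by 3.40 over the same span, with both CT values above 30. With the last 3 assays, the mean and the median in turn it was higher by 4.55, 2.13 and 2.22. Both arms passed 2-fold from LSK to granulocytes, against 58.7% of the assays. From promyelocytes to myelocytes miR-142-3p had the 7th largest nuclear increase of 47 assays, whose median was -0.52 unscaled, 0.89 with the last 3 assays and 0.11 with the median scaling. In the last step its log2 change was 1.87 in nuclear and -0.22 in cytoplasmic RNA, where the medians of all assays were 1.35 and 0.08 over 57 and 109 assays. With the mean or the median scaling of each fraction those medians were 0.18 and 0.03, or 0.06 and 0.32.

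How the arms divided between nucleus and cytoplasm was described by the nuclear minus cytoplasmic CT of each stage, where a larger value stands for a more cytoplasmic miRNA. For miR-142-3p it was 3.62 for LSK, 2.61 for promyelocytes, 3.32 for myelocytes and 1.23 for granulocytes. The median over named assays of a cytoplasmic CT under 30 and a detected nuclear CT was 4.28, 2.86, 4.12 and 2.60 in the same order. miR-142-3p was therefore less cytoplasmic than the median assay at all 4 stages, by 0.66, 0.25, 0.81 and 1.36 cycles, most in granulocytes. A smaller value was read for 22 of 101, 27 of 84, 20 of 98 and 4 of 100 assays in the same order. Its promyelocyte value lay between the quartiles of 2.36 and 3.43, and its LSK value close to the lower quartile of 3.70.

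miR-142-5p lay on the other side of the median. Its nuclear minus cytoplasmic CT was 4.82 for LSK, 4.36 for myelocytes and 3.13 for granulocytes, and for promyelocytes 9.04 if the undetermined well is read at 40 and 4.04 if it is read at 35. With the median of the assays taken off, it was 0.54 for LSK, 0.23 for myelocytes and 0.54 for granulocytes. The nuclear CT of this arm was above 31 wherever it was read, so its values carry less weight than those of the 3p arm.

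With the nuclear:cytoplasmic ratio divided by 3, miR-142-3p had 0.0271 for LSK, 0.0546 for promyelocytes, 0.0335 for myelocytes and 0.142 for granulocytes. Without the divisor the cytoplasmic signal exceeded the nuclear by 12.3-, 6.10-, 9.95- and 2.35-fold. A ratio over 0.1 was reached by 15.6% of the LSK assays with a nuclear CT under 30, and by 27.5%, 13.5% and 10.5% of those of promyelocytes, myelocytes and granulocytes. miR-142-3p passed that limit in granulocytes alone, and miR-142-5p, at 0.0118 for LSK, 0.0163 for myelocytes and 0.0380 for granulocytes, did not. These calls rest on the divisor. Without it miR-142-3p had 0.0814 for LSK, 0.164 for promyelocytes, 0.1005 for myelocytes and 0.425 for granulocytes, over the limit at all stages but LSK, and miR-142-5p passed it in granulocytes at 0.114. The share of assays over the limit was then 22.2% for LSK, 85% for promyelocytes, 32.4% for myelocytes and 87.7% for granulocytes.

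In granulocytes, 4 of the other assays with a cytoplasmic CT under 30 had a smaller nuclear minus cytoplasmic CT than miR-142-3p: miR-135a* at 0.46, miR-706 at 1.01, miR-709 at 0.45 and miR-801 at 0.89. All 4 stand in the second block of the table, while both miR-142 arms stand in the first. The second block was taken to start at the assay of let-7a* and holds 212 assays, and the first holds 381. The comparison within blocks was added after seeing the data, and the first block leaves out all 4 of these assays. Within the first block 0 of 75 assays lay below miR-142-3p in granulocytes, against 12 of 73 for LSK, 18 of 63 for promyelocytes and 14 of 75 for myelocytes. The last 3 assays of the table, which read more signal in the nucleus, also changed with stage: their mean nuclear minus cytoplasmic CT was -3.59 for LSK, -5.68 for promyelocytes, -2.60 for myelocytes and -1.03 for granulocytes. The fractions of granulocytes thus differed less from each other for those assays too, and the part of the fractionation in the miR-142-3p value was not tested.

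**Figure D3:**
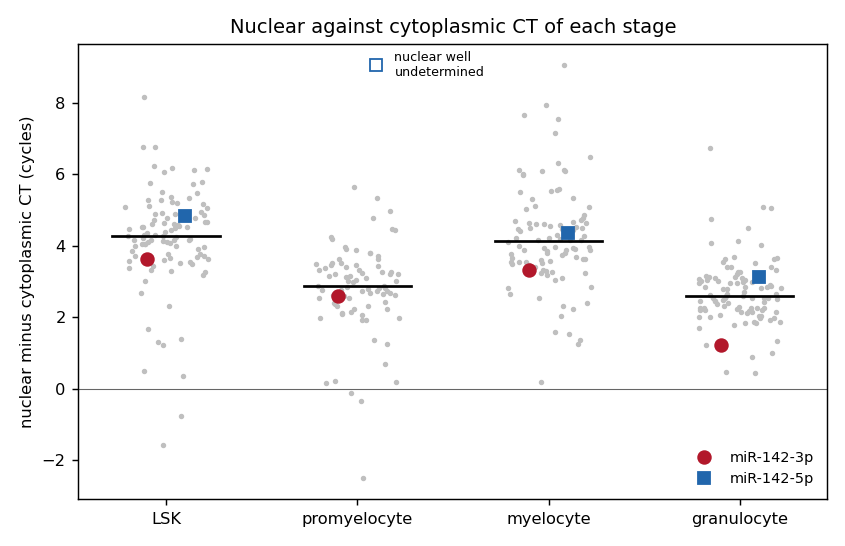
Nuclear minus cytoplasmic CT, in cycles, at each stage for named assays of a cytoplasmic CT under 30 and a detected nuclear CT (grey points) and their median (black bar), with miR-142-3p (circles) and miR-142-5p (squares; open where the nuclear well was undetermined). miR-142-3p lies below the median at all 4 stages, at 1.23 against 2.60 in granulocytes, and miR-142-5p above it.

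Because both arms were read in the same RNA, the CT gap between them is free of any scaling between samples, although its size also holds the efficiencies of the assays. In whole cell RNA the 5p minus 3p gap was 5.95 for LSK, 7.32 for promyelocytes, 7.03 for myelocytes and 7.42 for granulocytes. In cytoplasmic RNA it was 6.52, 6.84, 6.67 and 6.19 in the same order. The cytoplasmic gap stayed within 0.65 cycles over all stages, while the whole cell gap was smaller in LSK than in any of the 3 later stages. The nuclear gap was 7.72 for LSK, 7.71 for myelocytes and 8.09 for granulocytes, and for promyelocytes, where the 5p well was undetermined, 13.3 if that well is read at 40 and 8.28 if it is read at 35. Each nuclear gap was wider than the whole cell and the cytoplasmic gap of its stage. Over the 11 samples with both arms read, the gap corresponds to 62.0- to 273-fold more signal from the 3p assay.

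**Figure D4:**
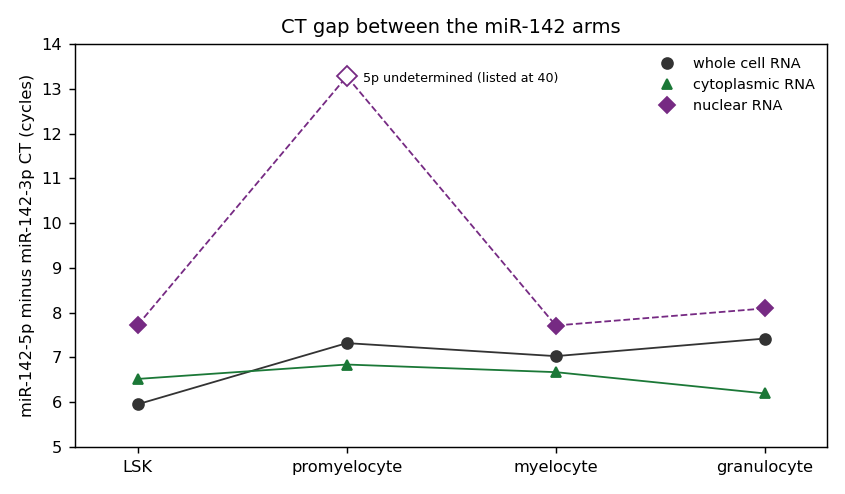
CT of miR-142-5p minus CT of miR-142-3p, in cycles, by stage in whole cell (circles), cytoplasmic (triangles) and nuclear RNA (diamonds), 1 sample per point; the open diamond takes the undetermined 5p well at the listed 40, and lies at 8.28 if it is taken at 35. The cytoplasmic gap stays between 6.19 and 6.84, and the nuclear gap is the widest at every stage.

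Other hairpins show how much such a gap moves between these samples. For 26 hairpins both arms were named and had a CT under 35 in all 4 whole cell samples, and the range of the gap over the stages ran from 0.28 to 4.35 cycles with a median of 1.86. The range for miR-142 was 1.47, and 17 hairpins had a larger one. Between LSK and granulocytes the miR-142 gap widened by 1.47 cycles, where 8 hairpins changed by more in either direction. Only 6 hairpins had both arms in the same block of the table. Among these the change ran from -1.58 for miR-324 to the 1.47 of miR-142, with 0.78 for miR-126, 0.07 for miR-339, -0.81 for miR-340 and -0.95 for miR-532. The change of the miR-142 gap thus lay inside the range of all 26 hairpins. As signed 5p minus 3p changes, it lay above the other 5 whose arms share a block, while in size that of miR-324 was larger. The negative gaps of miR-340 and miR-532 also widened in size, from -1.06 to -1.87 and from -1.97 to -2.93.

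Which miRNAs followed the arms was described by the root mean square difference of stage profiles, in cycles, over the 8 whole cell and cytoplasmic samples, after each of 138 other assays was centred on its mean in each fraction. The profiles nearest to miR-142-3p were those of miR-27a at 0.303, miR-301b at 0.327, miR-15b* at 0.349, miR-652 at 0.407 and miR-185 at 0.438. miR-142-5p came in the 7th place at 0.444, against a median of 1.21 over all. The profiles nearest to miR-142-5p were those of miR-15b at 0.169, miR-652 at 0.215, miR-301a at 0.219, miR-16 at 0.242 and miR-744 at 0.310, and miR-142-3p was only in the 14th place. The 2 lists of 5 share 1 miRNA, miR-652. The profile farthest from both arms was that of miR-196b, a miRNA of the Hox clusters, whose whole cell CT went from 25.8 in LSK to 33.2 in granulocytes. With the whole cell samples alone, 3 of the 5 nearest to miR-142-3p and 4 of the 5 nearest to miR-142-5p were again among the 5 nearest. The arms then lay 0.582 apart, with miR-142-5p in the 10th place for miR-142-3p and miR-142-3p in the 30th for miR-142-5p.

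**Figure D5:**
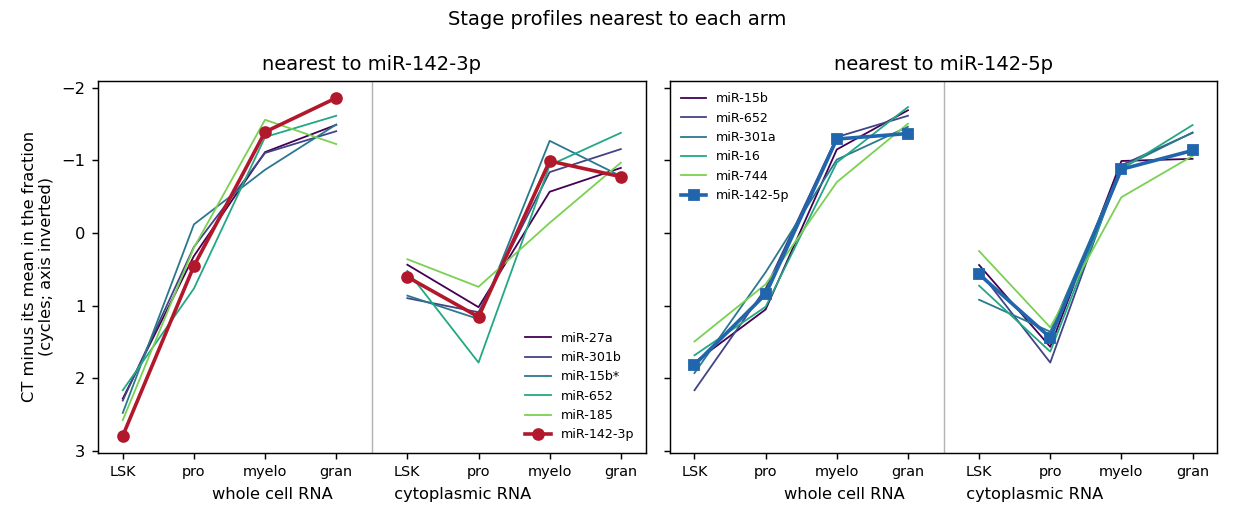
Stage profiles of miR-142-3p (left, circles) and miR-142-5p (right, squares) with the 5 nearest assays of each, as CT minus the mean CT of the assay in its fraction, in cycles on an inverted axis, for the 4 whole cell and the 4 cytoplasmic samples. All profiles shown are lowest in LSK in whole cell RNA and lowest in promyelocytes in unscaled cytoplasmic RNA, and miR-652 appears in both panels. The cytoplasmic fall to promyelocytes was general: among 71 assays under a CT of 30, only 3 were higher there than in LSK.

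Against other miRNAs known from hemopoiesis, the increase of miR-142-3p stood among the largest. Of a list of 18 such miRNAs 17 were named, and from LSK to granulocytes 4 of them were higher by 2-fold or more and 9 lower. Of all named assays 55.6% were higher and 16.1% lower in this span, and the median log2 change was -1.29 for the list and 1.31 for all. The 4 were miR-223, at 6.87, miR-27a, at 3.09, miR-16, which limits cell cycle genes, at 2.74, and miR-24, made from the same cluster as miR-27a, at 1.30. The 3.98 of miR-142-3p lies between miR-223 and miR-27a. Among those lower were miR-155, an inflammatory miRNA, at -4.72, miR-125a-5p, of the stem cell associated miR-125 family, at -6.04, and miR-196b, at -8.06. miR-146a, which damps signalling from Toll-like receptors, stood at -1.29.

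The steps of miR-223 and miR-142-3p differed in size but not in order. Whole cell miR-223 was higher by 4.25 from LSK to promyelocytes, by 2.16 to myelocytes and by 0.46 to granulocytes, and both miRNAs thus had their largest whole cell step first and their smallest last. In the first step 3 of the 17 list members were higher by 2-fold and 9 lower, against 33.7% and 17.3% of all named assays. In the step to myelocytes 6 of 14 were higher and 2 lower, against 42% and 12.5% of all, with a median of 0.74 beside 0.75. In the last step 0 were higher and 2 lower among the 13 with a CT under 30, against 10.8% and 6.67%.

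The study named the primary transcript of miR-142 as a predicted partner of miR-706, a miRNA with a high nuclear share. The seed of miR-706 is marked in capitals:
mmu-miR-706: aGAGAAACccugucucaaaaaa
The letters GUUUCUC, the 7 bases that would pair with that seed, were searched on the strand of the hairpin and do not occur in the 64 bases of the Mir142 hairpin. They occur in 16 of 1005 mouse hairpins of RefSeq, or 1.59%. The flanking primary transcript was not searched, and pairing outside the seed was not considered.

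The levels of miR-706 are given beside those of the arms. Nuclear miR-706 had a CT of 28.1 for LSK, 26.6 for promyelocytes, 28.9 for myelocytes and 28.2 for granulocytes. It was thus highest in promyelocytes. In whole cell RNA miR-706 was higher by 1.98 from LSK to promyelocytes, the same direction as miR-142-3p. From promyelocytes to myelocytes miR-706 stood at 0.11, or at -0.41 with the mean and -1.07 with the median scaling. From myelocytes to granulocytes it was lower, at -1.15. In the later steps whole cell miR-142-3p stood at 1.86 and 0.03. Unscaled cytoplasmic miR-706 stood at -0.26, 0.42 and 1.51 from the first step to the last, and at 1.59, -1.26 and -0.08 with the last 3 assays. That scaling was planned for the arms and was applied to miR-706 after seeing the data. Its cytoplasmic level had a CT of 28.9 for LSK, 29.1 for promyelocytes, 28.7 for myelocytes and 27.2 for granulocytes. No correlation was computed over so few samples, and whether miR-706 bears on the arms was not tested in them. The study inhibited miR-706 in MEL and MPRO cells, which are not among these samples. It reported no significant rise of the predicted miRNA targets it measured, miR-142-3p among them.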

How the data were processed

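CT values of 593 TaqMan assays were analysed for 12 samples. Per the methods of the study, the authors separated nuclei and cytoplasm with the PARIS kit, extracted RNA with Trizol, reverse transcribed it with Megaplex primers, ran rodent A and B array cards on an ABI 7900HT and read CT with SDS and RQ Manager software. The deposited values are raw CT scores without normalization, with undetermined wells at 40. An assay was read in 1 well of a sample, which leaves the error of a CT unknown.

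The assays of the table are numbered. They were named where the cytoplasmic and nuclear CT matched the printed CT values of the study within 0.0005 cycles, or else where whole cell differences, put on the scale of the printed fold changes by a fitted line for each pair of stages, matched within 0.002, each match being unique. The printed fold changes are not on the log2 scale used here. Of 255 and 129 printed entries read, 246 and a further 23 named an assay, without conflict. Both miR-142 arms were matched by either route to the same assay. The 324 unnamed assays entered only ranks over all assays and the alternative that counts all assays. The printed values served for naming and for finding the scaling and the divisor of 3, and are not reported.

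Whole cell changes were scaled by the mean CT of the last 3 assays, which gives the study's own constants within 0.000333 cycles; cytoplasmic and nuclear changes were not scaled. Shares count named assays with a CT under 30 in either stage. The text names both arms, the 5 nearest profiles of each arm, a list of 18 hemopoietic miRNAs, stage markers, miR-706 and hairpins with both arms read; the 4 assays below miR-142-3p in granulocytes were added after their values were seen. The arms, lists and rules were chosen with earlier results of these data known. Alternatives changed the scaling, the CT limit, the fold per cycle, the value of undetermined wells, the divisor and the samples of the likeness. The 2-fold call in whole cell RNA and the rule for the nearest profiles were tested on simulated data, and the other procedures were not. Python 3.11.15, numpy 2.4.6, pandas 2.3.3, matplotlib 3.10.9 and RNAfold 2.7.2 were used. Sequences and gene neighbours are from RefSeq, GRCm38.p6.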

Additional observations from a re-analysis of the deposited data

Results flagged for a closer look

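In 2 of the steps, an arm of miR-142 moved one way in some fractions and the other way in another, with 1 sample per stage and fraction, and these differences were not tested. From LSK to promyelocytes the log2 change of miR-142-3p was -0.55 in cytoplasmic, 2.09 in whole cell and 0.46 in nuclear RNA, and that of miR-142-5p was -0.87 in cytoplasmic and 0.73 in whole cell RNA. From myelocytes to granulocytes miR-142-3p stood at -0.22 in cytoplasmic, 0.0288 in whole cell and 1.87 in nuclear RNA. In the same step miR-142-5p stood at 0.26 in cytoplasmic, -0.36 in whole cell and 1.48 in nuclear RNA. Whole cell values are scaled and those of the fractions are not. Without scaling, whole cell miR-142-5p was at 0.08 in the last step, so that this arm was higher in all fractions. With the last 3 assays used in both, miR-142-3p was higher from LSK to promyelocytes by 2.09 in whole cell and 1.30 in cytoplasmic RNA, and miR-142-5p by 0.73 and 0.98.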

How the results depend on the processing

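The limits are those of 1 well in 1 sample: there was no replicate to leave out, and changes in direction came with another scaling of the samples or of the ratio, and the cause of the former was not tested. No paired test was run. The labels give no replicate numbers and each stage and fraction has 1 sample, and the fractions of a stage were set against each other without a test. Readings of miR-142-5p above a CT of 30 and its undetermined nuclear well are limited by detection.

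Of the values under other scalings, 20 of 24 in whole cell RNA, 9 of 24 in cytoplasmic RNA and 19 of 24 in nuclear RNA kept their direction and their side of 2-fold. In whole cell RNA, from promyelocytes to myelocytes the median scaling gave 0.68 for miR-142-3p and 0.97 for miR-142-5p, and from myelocytes to granulocytes miR-142-5p was 0.0762 without scaling and 0.0711 with the median. In cytoplasmic RNA, from LSK to promyelocytes miR-142-3p turned to 1.30, 0.62 and 1.06, and miR-142-5p to 0.98, 0.30 and 0.73, with the last 3 assays, the mean and the median in turn. From promyelocytes to myelocytes the last 3 assays and the median gave 0.47 and 0.56 for miR-142-3p and 0.64 and 0.73 for miR-142-5p. From myelocytes to granulocytes the last 3 assays gave -1.81 and -1.33 for the 3p and 5p arms, and the median 0.023 for the 3p arm. From LSK to granulocytes the last 3 assays gave -0.0336 and 0.29. In nuclear RNA the median gave -0.0672 for miR-142-3p from LSK to promyelocytes. From myelocytes to granulocytes the mean and the median gave 0.70 and 0.58 for miR-142-3p and 0.32 and 0.19 for miR-142-5p. With undetermined wells at 35, miR-142-5p was at -0.0916 from LSK to promyelocytes, and the nuclear arm gap changed by 0.55 and then by -0.56 in the first steps.

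Set against the median assay, which by construction moves the zero, the log2 nuclear:cytoplasmic ratio of miR-142-3p was 0.66, 0.25, 0.81 and 1.36 from LSK to granulocytes, and 0.65, 0.21, 0.64 and 1.31 against the first block of the table, an alternative chosen after seeing the data. For miR-142-5p the values were -0.54, -0.23 and -0.54 in LSK, myelocytes and granulocytes, and -0.55, -0.41 and -0.59 against the first block.

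The share of assays 2-fold higher moved with the scaling. In whole cell RNA it was 14.3% with the median from promyelocytes to myelocytes, and 28.3% without scaling or with the median and 19.4% with a CT limit of 35 from myelocytes to granulocytes. In cytoplasmic RNA, with the last 3 assays, the mean and the median in turn, it was 31.5%, 14.4% and 28.8% from LSK to promyelocytes and 17.3%, 32.7% and 19.1% to myelocytes. From myelocytes to granulocytes it was 1.84% with the last 3 assays and 19.6% with a CT limit of 35, and from LSK to granulocytes 11.3% with the last 3 assays.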
